A study of Schmidtea mediterranea with 40 samples.

Results

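The DNA replication and cell cycle genes of the planarian *Schmidtea mediterranea* were taken from the deposited annotation. A contig of the assembled transcriptome was a member when the description of its best human match named a DNA replication or cell cycle protein and it held at least 400 reads over all libraries, which gave 117 members of 28742 contigs. Before that minimum 141 contigs matched. The measured levels played no other part in the choice. Members are called by the symbol of their human match, with the number of the contig (dd_1920 for dd_Smed_v6_1920_0_1) where several contigs share a symbol, and reads of such near copies may be split uncertainly.

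The study asked how loss of *activin-2*, a TGF-β family ligand, alters the response to wounding and the choice of head or tail at posterior-facing wounds. Animals of the strain CIW4 were fed double-stranded RNA for *activin-2* or, as control, for *unc-22*, a *C. elegans* gene, 4 times over 14 days, were cut 7 days after the last feeding, and poly(A) RNA was sequenced from post-pharyngeal fragments with 5 wounds per replicate. Both arms have 3 libraries each labelled 0, 6, 24 and 48 hours post amputation (hpa) and 4 libraries each for anterior- and posterior-facing wounds labelled 18 hpa, 40 in all. The 6, 24 and 48 hpa libraries are labelled posterior-facing, and those at 0 hpa carry no orientation in the labels (the study describes them as posterior-facing). RNAi lowers a transcript and does not delete the gene, and each library pools several wounds. The labels do not name the animals behind each replicate, so the p-values measure the spread between these libraries.

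Before a cell copies its DNA, the origin recognition complex (ORC) and CDC6 load the MCM helicase onto origins, and CDC7 and CDC45 help to set it going. Polymerases then copy the strands with PCNA as a sliding clamp, RFC as the loader of that clamp, RPA covering single strands and ribonucleotide reductase supplying deoxynucleotides, while cyclins, CDKs, Aurora and Polo kinases drive the cycle into and through mitosis. In planarians the neoblasts, which include the stem cells, are the dividing cells of the adult body, and they gather at wounds where tissue is missing.

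The members fall into 7 roles. Licensing and firing of origins has 15 (MCM4, 5, 7, 8, 9 and 10, MCM3AP, ORC1 to ORC5, CDC6, CDC45 and CDC7), the replicative polymerases and primase have 6, the clamp, its loader and the single-strand binding proteins have 9, nucleotide supply has 5 (RRM1, RRM2 and RRM2B contigs) and the cycle engine has 24 (mitotic and D-type cyclins, CDK1 and CDK4, CDC25C, Aurora and Polo kinases, CDC20 and parts of the anaphase-promoting complex). Roles went by symbol, so MCM8, MCM9 and MCM3AP stand under origins by name alone. These 5 roles hold 59 members and are called the core below. The other 58 are 8 polymerases of repair or mitochondria and 50 contigs that share a name with the family but mostly work elsewhere, such as the transcriptional kinases CDK9 and CDK12 and the CNNM2 magnesium transporter matches. The deposited annotation placed 24 of the 59 core members (40.7%) in the neoblast class, against 1 of the other 58 (1.72%) and 365 of the 16101 contigs with at least 400 reads (2.27%). That annotation played no part in the choice of members. The deposited planarian names often differ from the human ones, so a symbol stands for the human match and not for a settled identity. MCM4 dd_5956 and MCM7 dd_4712 are both MCM5 by planarian name, the PLK1 match dd_4273 and the PLK4 match dd_12637 are Aurora kinases, and the RFC3, RFC4 and RFC5 matches are RFC2. The CDK1, CDK4, CDK9, CDK10 dd_12247 and CDK11B matches are Cdk6-like, CDK17 dd_4172 is an NLK and CDKL1 dd_13082 a GSK3.

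Library totals ran from 2524235 to 13381025 reads with a median of 10533396. Levels are given as RPM, a contig's count times 1000000 over the library total, are not divided by length and are not compared between genes. In libraries labelled *activin-2* RNAi at 0, 6, 24 and 48 hpa *activin-2* stood at 2.25 to 5.55 RPM, against 30.3 to 54.0 in the controls. At 18 hpa it did not separate the labels: the 4 anterior libraries labelled *activin-2* RNAi held 25.8 to 85.8 RPM against 27.1 to 31.9, and the 4 posterior ones 70.1, 16.6, 6.02 and 3.63 RPM against 33.4 to 44.3. The study's list of wound-induced genes (127 contigs in the table) also did not follow the time labels simply, since its mean log2 deviation was lowest in the libraries labelled 24 hpa, at -0.66 in controls and -0.46 under *activin-2* RNAi, and 0.17 and 0.22 in those labelled 48 hpa. The list's mean was 0.10 in controls and 0.07 under *activin-2* RNAi in the libraries labelled 0 hpa. Times are therefore written as labelled. Below, hpa is always the labelled time, and falls, rises and courses are differences between labelled groups. Their direction in real time is not known from these values. The summed level of 4 pharynx markers was 41.9 RPM in control replicate 3 at 0 hpa against 0.448 and 0.556 in the other 2, 28.7 in *activin-2* RNAi replicate 3 at 6 hpa, 122 in *activin-2* RNAi replicate 2 at 48 hpa against 3.86 and 6.34, and 54.2 to 177 in the *activin-2* RNAi posterior libraries at 18 hpa against 0.696 to 1.82 in controls.

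Summed over the 59 core members, the level was 1636 ± 93.2 RPM (SD, n = 3) in controls at 0 hpa, 1816 ± 68.9 (n = 3) at 6 hpa, 1575 ± 21.7 (n = 4) at posterior wounds labelled 18 hpa, 1266 ± 7.48 (n = 3) at 24 hpa and 1391 ± 41.5 (n = 3) at 48 hpa. Under *activin-2* RNAi the same sums were 1796 ± 38.6, 1809 ± 25.2, 1744 ± 28.3, 1404 ± 47.0 and 1643 ± 145 RPM (SD, with n as in controls), and at anterior wounds they were 1635 ± 33.1 in controls and 1778 ± 30.9 under RNAi (n = 4 each). The core sums of the *activin-2* RNAi libraries lay above all control libraries of the same group except at 6 hpa, where they overlapped. The summed members outside the core also lay above controls at 18, 24 and 48 hpa and overlapped at 0 and 6 hpa. At 24 hpa they held 3523 to 3588 RPM under RNAi against 3011 to 3052 in controls. Their control mean was lowest at 24 hpa too, at 3036 RPM, while their RNAi means were 3550 RPM at 24 hpa and 3532 at 48 hpa. In both arms the core sum was lowest in the libraries labelled 24 hpa. *smedwi-1*, the piwi gene used as the general neoblast marker, took a like course, with control means of 757, 1069, 789, 577 and 596 RPM at 0, 6, 18 (posterior), 24 and 48 hpa and means of 934, 1031, 896, 722 and 733 RPM under *activin-2* RNAi. In bulk tissue fewer cells of a type and less RNA per cell cannot be told apart.

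**Figure D1:**
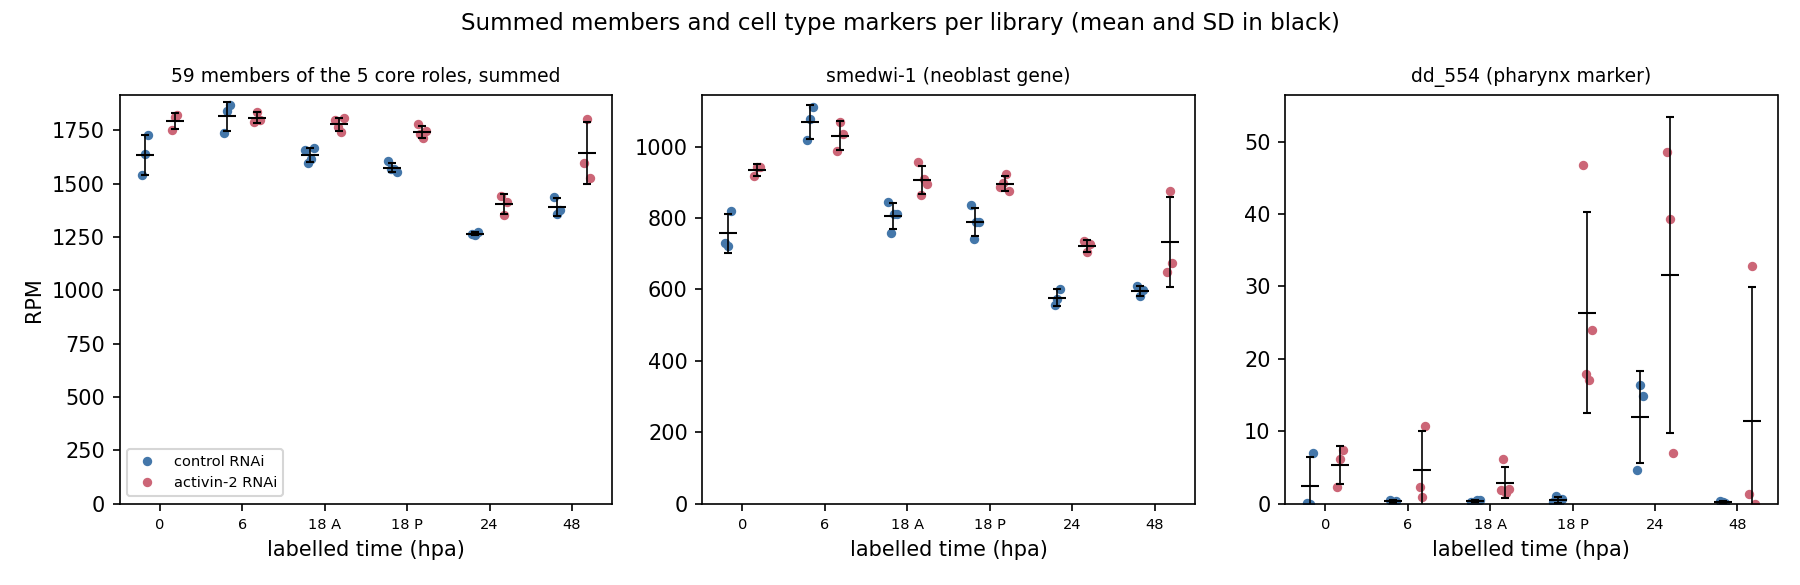
Summed level of the 59 core members, level of *smedwi-1* and level of the pharynx marker dd_554, each in RPM, by group, with 1 point per library and a bar at the mean ± SD. Core sums under *activin-2* RNAi lie above the control points at 0, 18, 24 and 48 hpa, and dd_554 is high in single libraries of some groups.

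In both arms the core members stood lower in the libraries labelled 24 hpa than in those labelled 0 hpa. The study reports from its sequencing that neoblast-specific transcripts rose at wounds, and normally so under *activin-2* RNAi. The core members did not follow that direction at this label. The study's own neoblast genes were not compared with them here. A member is called where its edgeR quasi-likelihood p, adjusted by the Benjamini-Hochberg method over every contig tested, is under 0.05. In controls 29 of 117 members were called, 6 higher and 23 lower at 24 hpa, where 23.5% of the contigs tested were called, 11.6% higher and 11.9% lower. The core gave 17 of 59 lower and 3 higher with a median log2 fold change of -0.27, the other members 6 of 58 lower and 3 higher with a median of -0.05, and all contigs a median of -0.03. Under *activin-2* RNAi 33 of 117 members were called, 3 higher and 30 lower, where 12.8% of all contigs were called, 6.01% higher and 6.82% lower. There the core gave 24 of 59 lower and 1 higher with a median of -0.36, the others 6 of 58 lower and 2 higher with a median of -0.05, and all contigs a median of 0.00. All 117 members passed the filter on low counts in both comparisons. The fits scale libraries by composition factors (edgeR's TMM), which RPM does not. By library totals alone the median of all contigs was -0.20 in controls, and the members called were 3 higher and 46 lower, where 28.5% of contigs were called. Leaving out single libraries gave 19 to 25 calls in controls, with 19 without 24 hpa replicate 2, and 17 to 29 under *activin-2* RNAi, with 17 without 24 hpa replicate 3. Shares of all contigs are not given for fits without a library, here or below.

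Other marker classes were read beside these values. Of 329 contigs annotated as neoblast that are not members, 47 were called lower and 27 higher in controls, with a median log2 fold change of -0.08, in a background of 11.9% lower and 11.6% higher over all contigs. Under *activin-2* RNAi 46 were lower and 12 higher with a median of -0.15, in a background of 6.82% and 6.01%. The summed neoblast class ran from 6453 to 6936 RPM at 0 hpa and from 6084 to 6245 RPM at 24 hpa in controls, and from 6751 to 7093 and from 6215 to 6517 RPM under RNAi. Among the 25 members in that class, 8 were called lower in controls (median -0.33) and 12 under RNAi (median -0.55). In controls the summed gut class stood at 106500 to 114900 RPM at 0 hpa and 115700 to 119000 at 24 hpa, the muscle class at 74390 ± 5353 and 81450 ± 2584 RPM (SD, n = 3), and the pharynx markers at 0.448, 0.556 and 41.95 RPM at 0 hpa and 11.1 to 75.5 RPM at 24 hpa. Under RNAi the gut class stood at 107300 to 114200 and 108100 to 123400 RPM and the muscle class at 82820 ± 14000 and 82470 ± 14310 RPM. The part of these cell types in the members' lower level was not tested.

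The members with the largest and the firmest falls in the libraries labelled 24 hpa were RRM2B dd_5862 and RRM2 dd_2286. Both match small subunits of ribonucleotide reductase, the enzyme of nucleotide supply. RRM2 (dd_2286) stood at 73.5, 86.3 and 84.3 RPM in controls at 0 hpa and at 39.6, 41.6 and 40.4 RPM at 24 hpa, and under *activin-2* RNAi at 82.8, 91.2 and 97.9 RPM and then 52.8, 54.3 and 51.5 RPM. Every 24 hpa library lay below every 0 hpa library in both arms, with log2 fold changes of -0.83 (SE 0.09, edgeR adjusted p = 4.51e-05) and -0.78 (SE 0.08, adjusted p = 0.000106). RRM2B (dd_5862) is named for its human match, the p53-inducible form of that subunit, while its planarian name is subunit M2. In controls it went from 24.1, 25.0 and 39.5 RPM to 7.21, 7.99 and 11.8 RPM, a log2 fold change of -1.54 (SE 0.19, adjusted p = 0.000118). Under RNAi it went from 24.6, 39.6 and 35.4 RPM to 11.8, 16.7 and 15.4 RPM, a log2 fold change of -1.19 (SE 0.17, adjusted p = 0.00102). The groups did not overlap here either, although the 0 hpa control with the high pharynx markers was also the highest for RRM2B. RRM1, the large subunit, was not called, at 202 to 220 RPM and 194 to 206 RPM in controls. Other small-subunit matches, at low levels, were not called lower. RRM2B dd_18488 had means of 3.59 and 3.56 RPM in controls and 2.83 and 3.87 RPM under RNAi at 0 and 24 hpa. RRM2 dd_20567 had means of 1.13 and 0.845 RPM in controls and 1.03 and 1.45 RPM under RNAi.

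Of the 9 members around the clamp 4 were called lower and 1 higher at 24 hpa in controls, and 6 lower and 1 higher under *activin-2* RNAi. PCNA, the sliding clamp (dd_1920), stood at 60.5, 73.5 and 64.5 RPM in controls at 0 hpa against 35.5, 36.5 and 40.02 RPM at 24 hpa, and under *activin-2* RNAi at 78.2, 73.8 and 80.4 RPM against 51.5, 48.8 and 50.1 RPM. No 24 hpa library reached a 0 hpa one, and the log2 fold changes were -0.65 (SE 0.10, adjusted p = 0.000617) and -0.63 (SE 0.08, adjusted p = 0.000301). The second PCNA match, dd_5688, was not called, with means of 13.3 and 9.73 RPM in controls and 13.7 and 11.9 RPM under RNAi. RPA1 and RPA2, which cover single-stranded DNA, fell by 0.51 and 0.57 on the log2 scale in controls and by 0.49 and 0.70 under RNAi. RFC2, a subunit of the clamp loader, fell by 0.50 and 0.52 on the log2 scale. The contig named RFC5 or RFC2 (dd_5504) went the other way, from 28.6, 23.2 and 26.3 RPM to 34.5, 34.6 and 37.2 RPM in controls, with log2 fold changes of 0.60 (adjusted p = 0.0011) and 0.34 under RNAi (adjusted p = 0.0195).

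In the origin role 4 of 15 members were called lower at 24 hpa in controls and 6 of 15 under *activin-2* RNAi, with none higher in either arm. MCM7 (dd_4712), part of the replicative helicase, stood in controls at 99.8, 123 and 106 RPM and then at 73.2, 77.2 and 70.5 RPM, and under RNAi at 128, 128 and 134 RPM and then at 85.4, 72.5 and 76.0 RPM. The groups did not overlap, with log2 fold changes of -0.40 (SE 0.10, adjusted p = 0.016) and -0.74 (SE 0.08, adjusted p = 0.000178). MCM4, of the same helicase, fell by 0.32 and 0.55 on the log2 scale. MCM5 was called under RNAi, at -0.67 (adjusted p = 0.000883), and not in controls, at -0.24 (adjusted p = 0.0751). ORC5 (-0.94) and ORC3 (-0.46) were called in controls, and ORC2 (-0.80), ORC1 (-0.37) and the loader CDC6 (-0.68) under RNAi, which are subunits or a partner of the origin recognition complex. Of these ORC3, ORC1 and CDC6 lost the call in 5 or 6 of the 6 fits that left out a library, while MCM7 kept it in both arms.

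Among the replicative polymerases, POLE2, the second subunit of the leading-strand polymerase, fell by 0.81 on the log2 scale in controls and by 0.89 under *activin-2* RNAi, from levels of 4.33 to 5.32 RPM and 4.07 to 6.50 RPM. PRIM2, the large primase subunit, fell by 0.49 and 0.71 on the log2 scale, a call that was lost in controls in 5 of 6 fits without a library. POLA1, the catalytic subunit of the polymerase that extends primers, was called under RNAi, at -0.35, which was lost in 4 of 6 such fits, and the RNAi by time interaction given below did not call it.

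The cycle engine gave 5 of 24 lower in controls and 7 of 24 lower under *activin-2* RNAi. CCNB2, a mitotic cyclin (dd_7837), stood at 33.7, 36.1 and 40.9 RPM in controls at 0 hpa and at 18.2, 20.7 and 22.3 RPM at 24 hpa, and under RNAi at 43.4, 47.1 and 44.6 RPM and then 26.7, 29.6 and 29.4 RPM. The groups did not overlap in either arm, with log2 fold changes of -0.68 (SE 0.10, adjusted p = 0.000398) and -0.66 (SE 0.09, adjusted p = 0.000603). CDC25C (dd_5520), the phosphatase that switches on CDK1, fell by 0.84 and 0.50 on the log2 scale. The contig named PLK1 or Aurora (dd_4273) fell by 0.32 and 0.63 on the log2 scale. In controls the D-type cyclin CCND2 (-0.59) and PLK4, the kinase of centriole copying (-0.39), were also called lower, and like MCM4 above they lost the control call in 4 of the 6 fits without a library. Under RNAi the calls were CDK1 dd_14134 (-0.62), CCNB1 (-0.62), AURKA dd_9065 (-0.56, lost without 24 hpa replicate 3) and CDC20, an activator of the anaphase-promoting complex (-0.36), which lost its call in 5 of the 6 fits without a library and by DESeq2. In controls 2 of the role were higher, AURKC dd_12125 at 0.93 and CDC16 dd_7357, a part of the anaphase-promoting complex, at 0.28, the latter with overlapping groups.

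**Figure D2:**
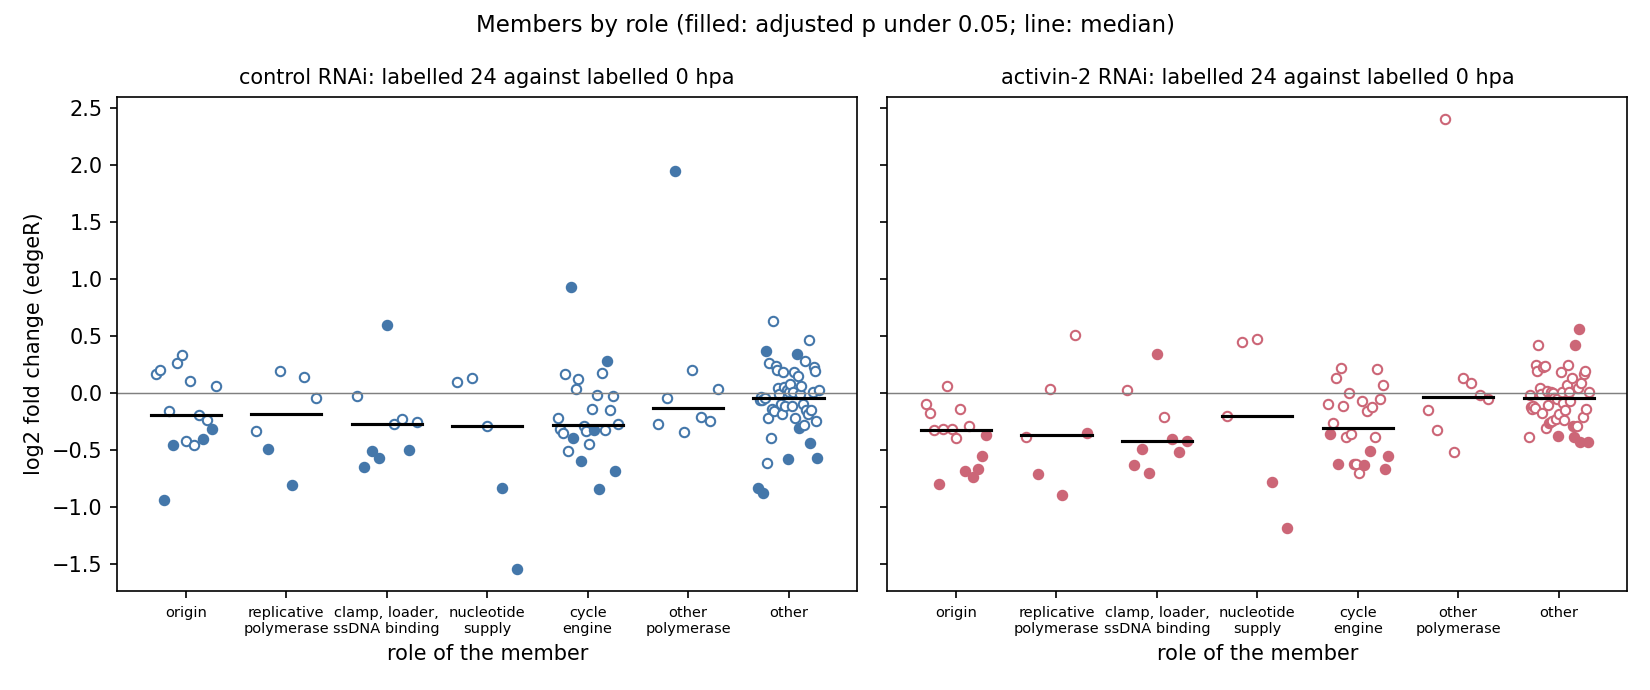
Log2 fold change of each member at 24 hpa against 0 hpa, by role, for control and *activin-2* RNAi libraries, with called members filled and a line at each role's median. Medians of the 5 core roles lie between -0.42 and -0.19 in both arms, and those of the other roles between -0.13 and -0.04.

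The 2 time comparisons at 24 hpa share no libraries, so their lists can be set beside each other. Of the 17 core members lower in controls and the 24 lower under *activin-2* RNAi, 13 were in both lists, 76.5% of the first and 54.2% of the second. Over all 15836 contigs tested in both, 677 were in both lists, 35.4% of the 1913 lower in controls and 61.8% of the 1096 lower under RNAi. The core members in both lists were RRM2, RRM2B, PCNA, RPA1, RPA2, RFC2, MCM4, MCM7, POLE2, PRIM2, CCNB2, CDC25C and PLK1 dd_4273. Outside the core CDK17, CDK9 dd_8520 and CDK11B dd_9430, of which the last 2 are kinases of transcription and splicing, were in both.

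The other labelled times were set against 0 hpa in the same way, and within an arm these comparisons share the 0 hpa libraries. At 6 hpa edgeR called 0 of 116 members in either arm, with 0.821% of contigs called in controls and 1.13% under *activin-2* RNAi. Before adjustment, p was under 0.05 for 22 members higher and 2 lower in controls and for 5 higher and 4 lower under RNAi. The share of all contigs with p under 0.05 before adjustment was not counted, here or below. Such counts therefore have no background to be read against. DESeq2 called 4 and 0, where 2.49% and 2.33% of contigs were called. With all 12 groups in 1 edgeR fit 8 were called in controls (7 higher, 1 lower) and 2 under RNAi, where 2.44% and 2.42% of contigs were called. By group means 28 of the 59 core members (47.5%) had their highest control level at 6 hpa, against 27.6% of all contigs, and 38 (64.4%) their lowest at 24 hpa, against 41.4%. Under RNAi 14 (23.7%) were highest at 6 hpa, against 19.8% of all contigs, and 33 (55.9%) lowest at 24 hpa, against 18.2%. At posterior wounds labelled 18 hpa 16 of 116 members were called in controls (6 higher, 10 lower), where 26.4% of contigs were called, 13.8% higher and 12.6% lower, and 39 of 115 under RNAi (11 higher, 28 lower), where 37.8% were, 19.8% higher and 18% lower. By library totals alone the second split was 16 higher and 17 lower, where 37.0% of contigs were called. Single libraries moved these counts, to 7 without control 18 hpa replicate 3, 8 without replicate 4, 9 and 10 without control 0 hpa replicates 2 and 1, and 25 without *activin-2* RNAi 18 hpa replicate 3. With *activin-2* RNAi replicates 3 and 4 alone, whose *activin-2* reads were the lowest, 20 members were called (6 higher, 14 lower), where 25.3% of contigs were called. RRM2 (-0.26 and -0.23) and MCM4 (-0.30 and -0.25) were called in both arms with all libraries, but with those 2 replicates alone their RNAi calls were lost (adjusted p = 0.142 and 0.0903), and RRM2 in controls lost its call in 4 of 7 fits without a library. Core members also rose under RNAi: POLE dd_20968 (0.81), RRM2B dd_18488 (0.58), RFC1 (0.36) and AURKC dd_11295 (0.29) kept their calls with those 2 replicates. So did falls such as MCM7 (-0.34), MCM5 (-0.26), ORC1 (-0.43) and RFC3 (-0.46).

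At 48 hpa 10 of 116 members were called in controls, all lower, where 11% of contigs were called and 5.39% called lower. In the core these were RRM2 (-0.56, adjusted p = 0.00155), RRM2B dd_5862 (-0.61), PCNA (-0.39), CCNB2 (-0.37), CDC25C dd_5520 (-0.67) and ORC5 (-0.61). ORC5 lost its call in all 6 fits without a library, RRM2B and CCNB2 in 3, PCNA in 2 and CDC25C in 1, while RRM2 kept it. Without control 48 hpa replicates 1, 2 or 3 in turn the count was 5, 6 and 6, and by library totals alone 21, where 14.3% of contigs were called. Under *activin-2* RNAi edgeR called 0 of 117, where 1.07% of contigs were called, with 4 members higher and 13 lower at p under 0.05 before adjustment. DESeq2 called 1, where 1.75% of contigs were called. With the replicate number as a block, since these samples deviated together by number, 5 members were called (1 higher, 4 lower; 5.37% of contigs). Without *activin-2* RNAi 48 hpa replicate 2, the library high in pharynx markers, 11 were called (1 higher, 10 lower).

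**Figure D3:**
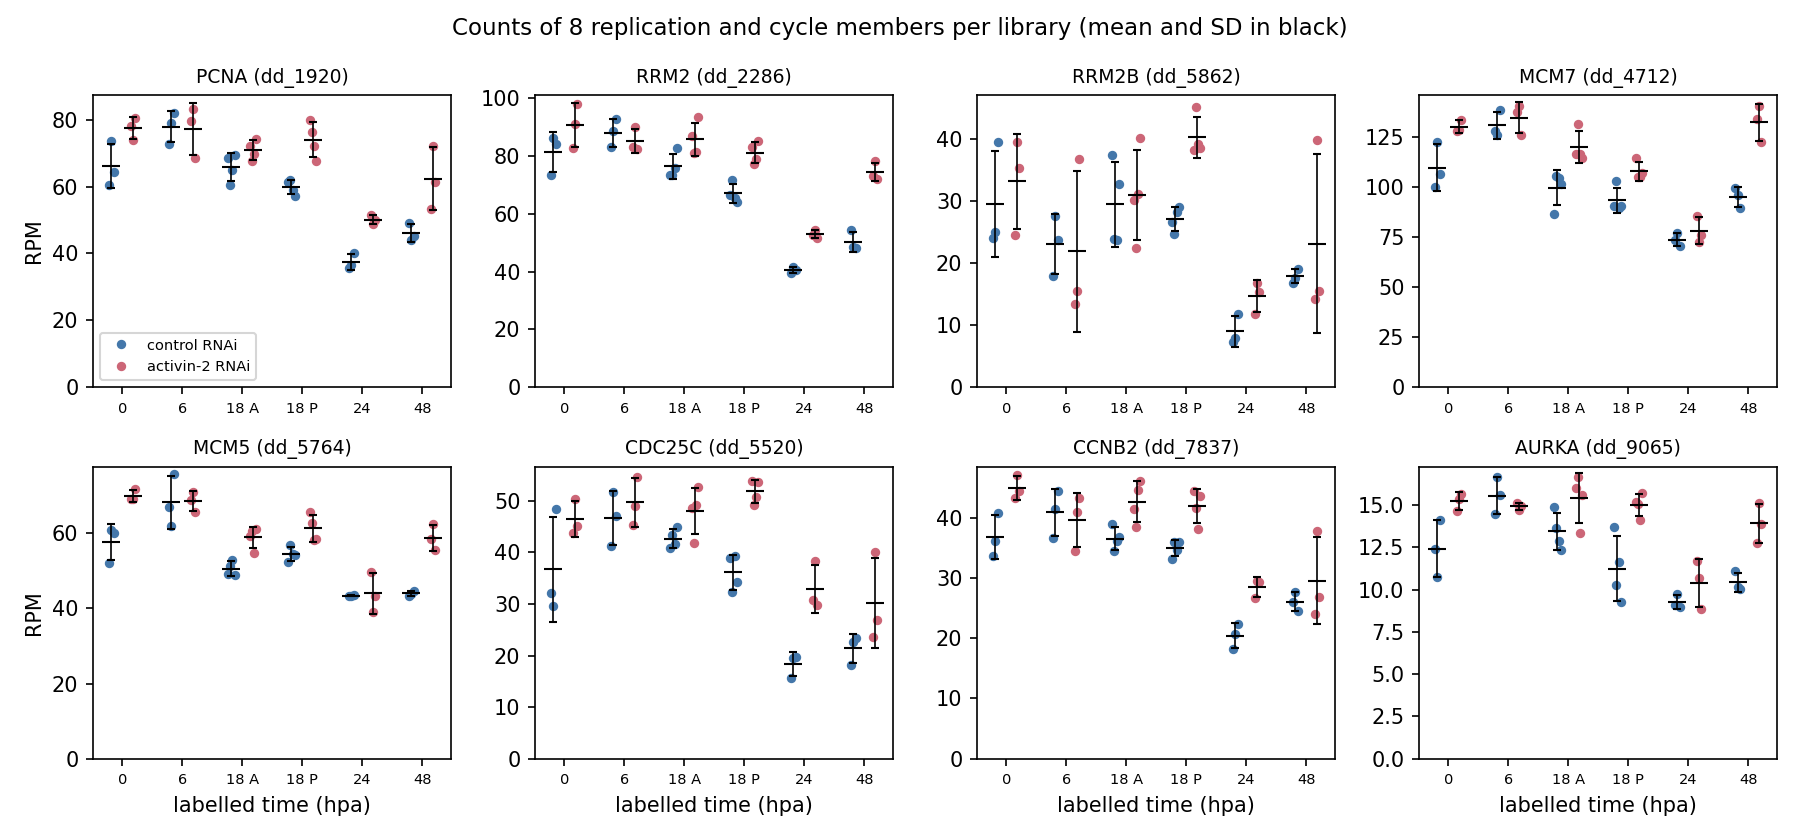
Level in RPM of PCNA, RRM2, RRM2B dd_5862, MCM7, MCM5, CDC25C, CCNB2 and AURKA by group, with 1 point per library and the mean ± SD (n = 3 or 4). In controls each has its lowest mean at 24 hpa, and RRM2 at 48 hpa has all *activin-2* RNAi points at 72.1 RPM or more and all control points at 54.3 RPM or less.

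Comparing the arms at the same label asks whether the members' level depended on *activin-2*. Few members passed the test. The 20 calls over 6 comparisons fell on 15 members, and 19 of the calls were higher under *activin-2* RNAi. In the 4 comparisons with calls, at 6, 18 (posterior), 24 and 48 hpa, 2%, 8.93%, 12.5% and 2.33% of all contigs were called. Of all contigs 0.738%, 3.15%, 4.51% and 0.496% were called higher there. At 0 hpa edgeR called 0 of 116 members where 4.22% of contigs were called. Before adjustment 25 were higher and 5 lower at p under 0.05, with no count over all contigs beside them. DESeq2 called 1, where 4.64% of contigs were called. The median log2 fold change was 0.13 over the members, 0.20 over the core and 0.01 over all contigs. With all 12 groups in 1 edgeR fit 10 members were called, all higher, where 6.96% of contigs were called in either direction. Without control replicates 2 or 3 or *activin-2* RNAi replicate 3 in turn 3, 2 and 1 were called. Of the core 45 of 59 had a fold change above 0, and the members just short of the test included PCNA (0.27, adjusted p = 0.166) and RRM2 (0.20, adjusted p = 0.294).

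At 6 hpa 1 of 117 was called, CDK17 dd_4172 at 0.32 (SE 0.06, adjusted p = 0.0406), where 2% of contigs were called, 0.738% higher, and the members' median was 0.02. This kinase, also matched to NLK, was at 244, 265 and 254 RPM in controls and 301, 289 and 335 RPM under RNAi. The groups did not overlap, but the call was lost without any 1 of the other 5 libraries, while 5 members were called without *activin-2* RNAi replicate 3, the library high in pharynx markers. At anterior wounds labelled 18 hpa 0 of 115 were called where 2.6% of contigs were, with 10 higher and 2 lower at p under 0.05 before adjustment and 0 by DESeq2. Medians there were 0.09 in the core and 0.01 over all contigs.

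At posterior wounds labelled 18 hpa 7 of 115 members were called, all higher under *activin-2* RNAi, where 8.93% of contigs were called and 3.15% called higher. CDC25C dd_5520 stood at 38.9, 32.4, 39.2 and 34.2 RPM in controls and 53.8, 49.1, 50.8 and 53.6 RPM under RNAi. The groups did not overlap, and the log2 fold change was 0.47 (SE 0.06, edgeR adjusted p = 0.000155). RRM2B dd_5862 stood at 26.6, 24.7, 28.2 and 29.0 RPM against 38.2, 45.2, 39.3 and 38.5 RPM, also without overlap, a log2 fold change of 0.52 (SE 0.07, adjusted p = 0.000203). PCNA was at 57.1 to 61.9 RPM in controls and 67.7 to 79.9 RPM under RNAi (0.25, SE 0.06, adjusted p = 0.0136), RRM2 at 64.1 to 71.8 and 77.2 to 85.4 RPM (0.22, SE 0.06, adjusted p = 0.0257), and the mitotic kinase AURKA dd_9065 at 9.29 to 13.7 and 14.1 to 15.7 RPM (0.37, SE 0.11, adjusted p = 0.0404). The remaining calls were CDC5L, a splicing factor (0.23), and CDK12 dd_8975 (0.29). No group pair overlapped among the 7, but these were picked by the call, and the share of all contigs without overlap was not counted.

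These posterior libraries are the ones whose pharynx markers were high and whose *activin-2* reads were not uniformly low. With *activin-2* RNAi replicates 3 and 4 alone 3 of the 7 were called: CDC25C at 0.48 (adjusted p = 0.00278), RRM2B at 0.48 (adjusted p = 0.00237) and CDK12 dd_8975 at 0.30 (adjusted p = 0.0477). In that fit 5.18% of contigs were called. PCNA (0.18, adjusted p = 0.181), RRM2 (0.25, adjusted p = 0.0874), AURKA (0.36, adjusted p = 0.175) and CDC5L (0.21, adjusted p = 0.104) kept their direction and missed the threshold. In 3 other groups RRM2B dd_5862 was highest in the library with the most pharynx markers, at 39.5 RPM against 24.1 and 25.0 in controls at 0 hpa, at 36.8 against 13.3 and 15.5 under RNAi at 6 hpa, and at 39.9 against 14.2 and 15.4 under RNAi at 48 hpa. In other groups it was not: under RNAi at 24 hpa the library with the most pharynx markers, 158 RPM, had 11.8 RPM of RRM2B against 16.7 and 15.4 in the others, and at posterior wounds the one at 177 RPM had 38.2 RPM of RRM2B against 45.2 in a library at 75.9 RPM. CDC25C dd_5520 was at 48.4 RPM against 32.1 and 29.6 in controls at 0 hpa and at 40.01 against 23.6 and 26.9 under RNAi at 48 hpa in the libraries high in pharynx markers, while under RNAi at 24 hpa the library with the most of them had 30.7 RPM against 38.4 in another. The part of pharynx tissue in the 18 hpa difference was not tested. Without control 18 hpa replicate 3 the count was 4. CDC25C, RRM2B and PCNA kept their calls whichever of the 8 libraries was left out, RRM2B was not called with all 12 groups in 1 fit (adjusted p = 0.239), RRM2 lost it in 6 of the 8 fits and AURKA in 7.

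At 24 hpa 7 of 117 members were called, 6 higher and 1 lower under *activin-2* RNAi, where 12.5% of contigs were called, 4.51% higher and 7.96% lower. CDC25C dd_5520 stood at 15.7, 19.5 and 19.8 RPM in controls and 30.7, 38.4 and 29.7 RPM under RNAi (0.70, SE 0.12, adjusted p = 0.00248). The second CDC25C match, dd_7176, went the other way without a call, at 9.65, 9.55 and 8.80 RPM against 7.81, 5.98 and 8.52 RPM (-0.46, adjusted p = 0.0774), and its fold change was below 0 in all 6 arm comparisons, from -0.64 to -0.23. CDK17 dd_4172 stood at 126, 122 and 117 RPM against 188, 194 and 188 RPM (0.50, SE 0.07, adjusted p = 0.000837). The CNNM2 match dd_6666, a magnesium transporter by name, was the member called lower, at 42.4, 43.7 and 52.2 RPM against 34.1, 34.7 and 35.9 RPM (-0.54, SE 0.08, adjusted p = 0.00117). PCNA (0.28), RRM2 (0.24), CCNB2 (0.34) and the mitochondrial polymerase POLG dd_5734 (0.41) had adjusted p between 0.026 and 0.0485. No group pair overlapped among these called members, and the share of all contigs without overlap was not counted. The pharynx markers were present in both arms here, at 11.1 to 75.5 RPM in controls and 18.0 to 158 RPM under RNAi, and their part was not tested. Leaving out libraries gave 3 calls without control replicate 1 or 2, 12 without control replicate 3, and 4 without *activin-2* RNAi replicate 2 or 3. RRM2 lost its call in all 6 of these fits and PCNA and CCNB2 in 4, while CDC25C, CDK17 and CNNM2 dd_6666 kept it in all 6. The core median was 0.03 against 0.02 over all contigs. By library totals alone, as in the summed RPM above, the median of all contigs was 0.16. There 22 members were called higher and 1 lower, where 20.4% of contigs were called.

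At 48 hpa 5 of 116 members were called, all higher under *activin-2* RNAi, where 2.33% of contigs were called and 0.496% called higher. RRM2 stood at 54.3, 48.4 and 48.1 RPM in controls and 73.1, 78.2 and 72.1 RPM under RNAi, with a log2 fold change of 0.52 (SE 0.09, adjusted p = 0.0131). MCM7 was at 99.4, 96.0 and 89.3 RPM against 134, 140 and 122 RPM (0.44, SE 0.09, adjusted p = 0.0294), and MCM5 at 43.4, 43.9 and 44.7 RPM against 58.6, 62.4 and 55.5 RPM (0.38, SE 0.09, adjusted p = 0.0456). All RNAi libraries lay above all control libraries for these 3. CCNG1, whose human match is a p53-responsive cyclin, was at 21.2 to 26.2 RPM against 34.9 to 41.4 RPM (0.60, SE 0.13, adjusted p = 0.0322). POLN, a repair polymerase, was at 1.00, 0.74 and 0.87 RPM against 3.54, 4.01 and 0.79 RPM, so that 1 RNAi library lay among the controls despite its call at 1.84 (adjusted p = 0.0301). That RNAi library, replicate 3, was the shallowest of all, with 2524235 reads, so 1 read there was 0.396 RPM.

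The count at 48 hpa depended on single libraries. Without *activin-2* RNAi replicate 2, the one with the high pharynx markers, 15 members were called (14 higher, 1 lower), while without replicate 1 of that arm the count was 2, and without control replicates 1, 2 or 3 it was 1, 0 and 0. RRM2 lost its call in the last 2 of these fits, MCM7 in 4 of 6 and MCM5 in 5 of 6. Over the core the median log2 fold change was 0.17 and 48 of 58 were above 0, against a median of 0.02 over all contigs. Before adjustment 26 members were higher and 2 lower at p under 0.05, a count not made over all contigs. PCNA, at 43.9 to 49.1 RPM against 53.4 to 72.2 RPM, did not pass (0.39, adjusted p = 0.086).

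**Figure D4:**
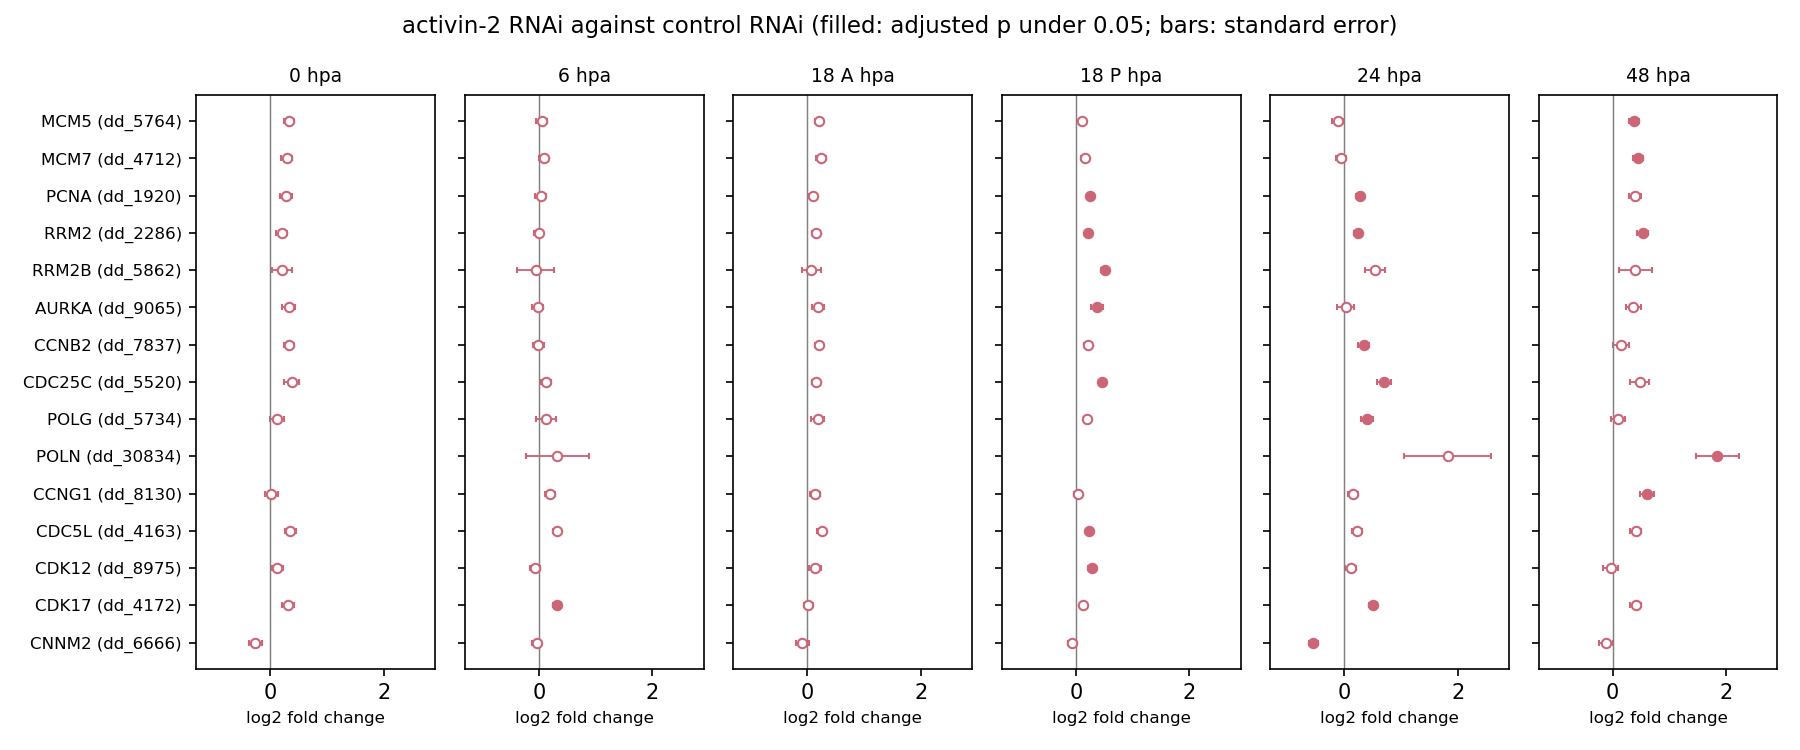
Log2 fold change of *activin-2* RNAi against control RNAi, with its SE, in the 6 groups for the 15 members called in at least 1 of them. RRM2 is at 0.52 at 48 hpa and -0.01 at 6 hpa, CDC25C dd_5520 at 0.70 at 24 hpa, and CNNM2 dd_6666 is the member called lower.

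Whether the arms took a different course over the labelled times was tested by the RNAi by labelled time interaction over the posterior-facing and 0 hpa libraries. It called 4 of 117 members, where 5.53% of contigs were called: CDKL1 dd_13082, a CDK-like kinase (adjusted p = 0.0132), RRM2 (adjusted p = 0.0383), MCM5 (adjusted p = 0.041) and CNNM2 dd_6666 (adjusted p = 0.0475). RRM2 differed between the arms by 0.20, -0.01, 0.22, 0.24 and 0.52 on the log2 scale at 0, 6, 18, 24 and 48 hpa. Leaving out single libraries gave 1 to 10 calls, 10 of them without *activin-2* RNAi 48 hpa replicate 2 and 1 without *activin-2* RNAi 0 hpa replicate 2.

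At 18 hpa the posterior- and anterior-facing wounds, which in controls regrow a tail and a head, were compared within each arm. In the study some posterior-facing wounds under *activin-2* RNAi also regrew heads. In controls 9 of 115 members were called, 7 higher and 2 lower at posterior wounds, where 15.4% of contigs were called, 8.19% higher and 7.24% lower. Under *activin-2* RNAi the count was 10 of 115, 7 higher and 3 lower, where 18.4% were called, 9.51% higher and 8.88% lower. By library totals alone the control split was 3 higher and 9 lower, where 17.2% of contigs were called. CCNB1 (dd_11487), a mitotic cyclin, stood in controls at 16.7, 9.88, 11.04 and 13.6 RPM at anterior wounds and 13.8, 15.7, 20.2 and 18.1 RPM at posterior ones, and under RNAi at 15.6, 11.01, 14.4 and 16.2 RPM and 19.4, 19.0, 20.2 and 18.4 RPM. The control groups overlapped and the RNAi groups did not, with log2 fold changes of 0.49 (SE 0.16, adjusted p = 0.046) and 0.45 (SE 0.10, adjusted p = 0.00742). CCNH, the cyclin of the CDK-activating kinase, was called at 0.72 and 0.80, with 3.16 to 7.03 RPM against 6.44 to 8.84 RPM in controls and 3.55 to 5.12 against 6.45 to 9.03 RPM under RNAi. CCNT2 dd_13078, a cyclin of transcriptional elongation, was at 1.30 to 2.34 RPM against 3.57 to 6.35 RPM in controls (1.37) and 1.06 to 3.19 against 4.12 to 6.56 RPM under RNAi (1.12). CCNG1 (0.45 and 0.33) and a second CCNT2 match, dd_1288 (0.21 and 0.33), were also higher in both arms. These 5 contigs are the members called in both arms. Their human matches are cyclins, a name by which members were chosen. The overlap of these lists over all contigs was not counted, so no theme is read from it. The share of members called in each arm was under that of all contigs, and CCNT2 dd_13078 lost its RNAi call with posterior replicates 3 and 4 alone (adjusted p = 0.0605) and with all 12 groups in 1 fit. In controls CDKL1 dd_13082 was the most reduced (-0.72) and CNNM2 dd_18450 rose by 0.92. Of the replication factors POLE dd_13980, the leading-strand polymerase, was lower (-0.25) and RRM2B dd_5862 higher (0.39) under RNAi, calls lost in 7 and 6 of the 8 fits without a library.

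The RNAi by orientation interaction called 0 of 116 members by edgeR and 0 by DESeq2, where 0.0941% of contigs were called, with 3 higher and 3 lower at p under 0.05 before adjustment. CDC25C differed by 0.32 between the arms (adjusted p = 0.496). The control count was 4 to 13 with single libraries left out, 4 without posterior replicate 3 and 5 without posterior replicates 2 or 4 or anterior replicates 2 or 3, and the RNAi count 5 to 9, with 5 without posterior replicates 3 or 4. With *activin-2* RNAi posterior replicates 3 and 4 alone it was 5, where 9.42% of contigs were called.

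**Figure D5:**
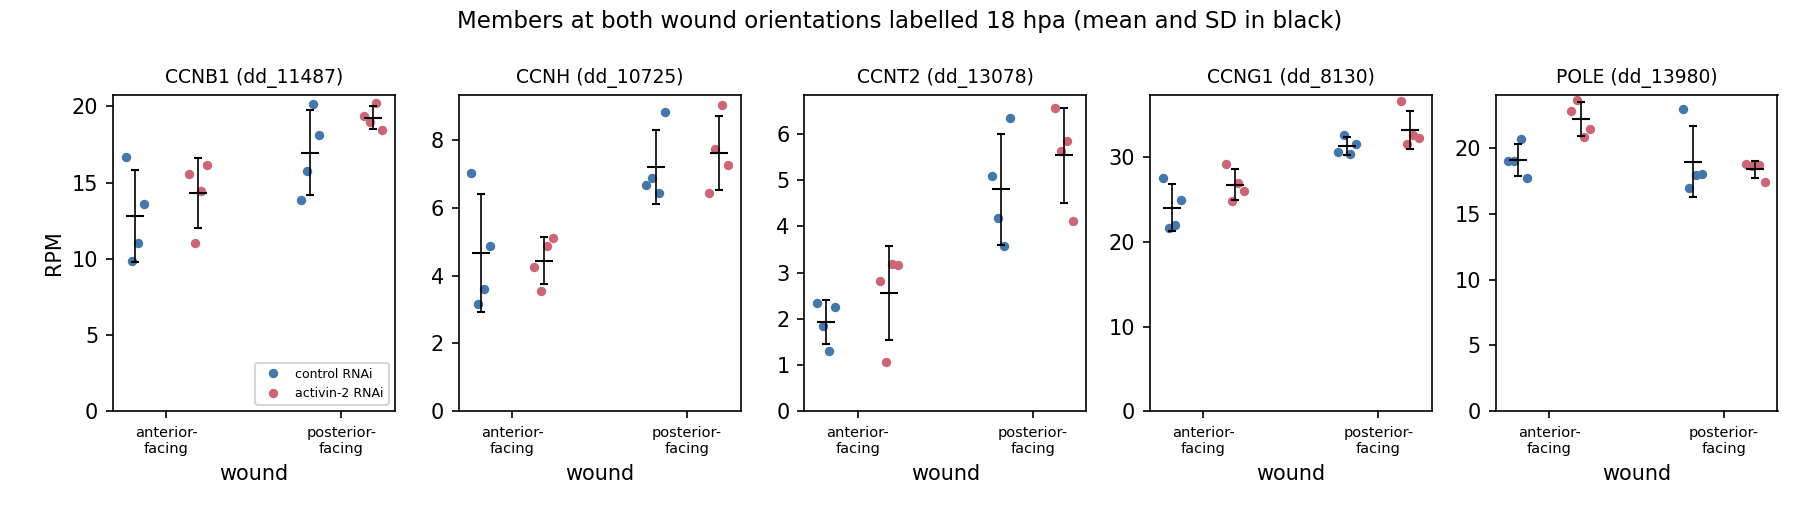
Level in RPM of CCNB1, CCNH, CCNT2 dd_13078, CCNG1 and POLE dd_13980 at wounds of either orientation, labelled 18 hpa, for both arms, with 1 point per library and the mean ± SD (n = 4). CCNT2 dd_13078 is at 3.57 RPM or more in every posterior library and at 3.19 RPM or less in every anterior one.

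A second list of 54 related contigs, for other replication, checkpoint and mitosis proteins such as GINS, CDT1, FEN1, topoisomerases, SMC proteins and RB-binding proteins, was read in the same fits. Between 0 and 24 hpa 5 were called lower and 4 higher in controls and 8 lower and 1 higher under *activin-2* RNAi, with medians of 0.02 and -0.17, beside the shares of all contigs given above (11.9% lower and 11.6% higher, and 6.82% and 6.01%). The control counts are under those shares. The licensing factor CDT1 (dd_11432), which brings the MCM helicase to origins, fell by 0.47 and 0.45 on the log2 scale, and the checkpoint kinase CHEK2 fell by 0.36 and 0.56. Between the arms GINS1, a partner of the replicative helicase, was higher under *activin-2* RNAi at posterior wounds labelled 18 hpa (0.26, adjusted p = 0.0364), as was TOP3A, a topoisomerase, at 24 hpa (0.34, adjusted p = 0.0404), while TOP2A dd_19166 was lower at 24 hpa (-1.02, adjusted p = 0.0163). At 48 hpa edgeR called 0 of the 54, with a median of 0.21 against 0.02 over all contigs. Before adjustment 15 were higher and 0 lower at p under 0.05, again without a count over all contigs. Between orientations ANAPC4, a scaffold of the anaphase-promoting complex, was higher at posterior wounds in both arms (0.67 and 0.89), and CDT1 dd_11432 lower (-0.40 and -0.30).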

How the data were processed

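Poly(A) RNA of 40 libraries in 12 groups was sequenced with a stranded kit. The authors mapped reads to the dd_Smed_v6 transcriptome with Bowtie (version 1.2 in the submitters' processing notes, where cutadapt 1.8 and SAMtools 1.6 also stand), counted reads per contig and summed isotigs. The deposited values are raw counts, 2524235 to 13381025 per library, a range that sets the precision of each level. The human E-value ("other" unit), names and cell class came from the deposited comparison table, whose log2 fold changes and adjusted p-values by the authors were not used. No genome was used here, so no sequences are shown.

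Groups were compared in pairs with edgeR 4.0.16 (R 4.3.3; TMM factors, filterByExpr minimum count 10 and total 15, quasi-likelihood test, Benjamini-Hochberg over all contigs, threshold 0.05); SE is the absolute log2 fold change over the root of F. Interactions used the same test. Time comparisons of 1 arm share its 0 hpa libraries. Wound-induced genes were averaged as log2(RPM + 0.1). On counts simulated for some of the comparisons 91.5% to 99.5% of 200 changed genes were recovered. The planted changes were larger than most reported here and the spread was the same for every gene. Recovery of smaller changes was therefore not measured.

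Same-numbered libraries deviated together between *activin-2* RNAi at 48 and 0 hpa (r 0.15 to 0.21 in 3 pairs), so the replicate block is given there. Alternatives were RLE factors, library size alone, DESeq2 1.42.0, no filter, the replicate block, all 12 groups in 1 fit, no minimum sum and each library left out. The *activin-2* RNAi replicates 3 and 4 at posterior wounds labelled 18 hpa were also used alone, chosen after seeing the data. Named by rule were the most abundant contig of each symbol on a fixed list (the MCM, ORC, RFC, RPA, POLA and PRIM families, CDC6, CDC45, CDC7, PCNA, POLD1, POLE, RRM1, RRM2, cyclins A, B, D and E, CDK1, CDK2, CDK4, CDK6, CDC20, CDC25, AURKA, AURKB, PLK1, PLK4) and the largest called rise and fall per comparison. Others were chosen after their values were seen. Members and lists were chosen with earlier results of these data known.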

Additional observations from a re-analysis of the deposited data

Results flagged for a closer look

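Each of these values was set apart by a gap test on the 4 libraries of a group or by the RNAi by time interaction, and none is explained. Over 180 groups of 4 libraries (45 contigs), 11 held a library far from the other 3, where chance gives about 5%. At anterior wounds labelled 18 hpa under *activin-2* RNAi, MCM7 was at 131.6 RPM in replicate 2 (others 114.4 to 116.4), ORC2 at 7.998 in replicate 4 (7.362 to 7.458) and CDK10 dd_12247 at 4.617 in replicate 2 (7.189 to 7.626), and in controls ORC1 was at 24.29 RPM in replicate 3 (25.68 to 25.85). At posterior wounds in controls MCM7 was at 102.7 RPM in replicate 2 (89.54 to 90.46) and CDC7 at 2.524 in replicate 3 (3.687 to 3.885). At posterior wounds under *activin-2* RNAi ORC1 was at 23.89 RPM in replicate 2 (26.16 to 26.48), RRM2B dd_5862 at 45.23 in replicate 2 (38.23 to 39.29), CNNM2 dd_18450 at 5.308 in replicate 2 (3.427 to 3.628), POLE dd_13980 at 17.45 in replicate 4 (18.68 to 18.77) and POLN at 1.958 in replicate 1 (0.08359 to 0.2123). That last library also had the highest summed pharynx markers of its group, 177 RPM.

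The course over labelled times differed between the arms in the edgeR interaction test for CDKL1 dd_13082 (adjusted p = 0.01324), RRM2 (adjusted p = 0.03826), MCM5 (adjusted p = 0.04102) and CNNM2 dd_6666 (adjusted p = 0.04754).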

How the results depend on the processing

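The numbers of members called moved by over 1.5 times in 60 of 154 fits without a library, 8 of 18 by DESeq2 and 9 of 18 with all groups in 1 fit. No named fold change past the threshold in its main fit reversed under any alternative that was run. Named fold changes not past it were not checked. With each library left out, calls ranged, for the arms, from 0 to 3 at 0 hpa, 0 to 5 at 6 hpa, 0 to 0 at anterior and 4 to 9 at posterior 18 hpa, 3 to 12 at 24 hpa and 0 to 15 at 48 hpa. Between orientations they ranged from 4 to 13 in controls and 5 to 9 under RNAi (interaction 0 to 0). Against 0 hpa they ranged in controls from 0 to 0, 7 to 19, 19 to 25 and 5 to 11 at 6, 18, 24 and 48 hpa, under RNAi from 0 to 2, 25 to 36, 17 to 29 and 0 to 11, and from 1 to 10 for the time interaction.

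By library size alone the arms gave 1 call at anterior and 16 at posterior 18 hpa and 23 at 24 hpa. Controls against 0 hpa gave 49 at 24 hpa and 21 at 48 hpa, and the time interaction 11. In the same order 2.51%, 9.8%, 20.4%, 28.5%, 14.3% and 9.0% of all contigs were called. Composition factors are what this setting drops. DESeq2 gave 1, 3 and 4 for the arms at 0, 6 and 24 hpa, 4, 10 and 19 for controls at 6, 18 and 24 hpa against 0 hpa, 1 for RNAi at 48 hpa and 7 for the interaction. With no filter the arms gave 1 and 2 at 0 and 6 hpa, controls 2 at 6 hpa, RNAi 4 at 48 hpa and the interaction 1. There 3.57%, 1.6%, 1.28%, 1.46% and 3.05% of all contigs were called. With all 12 groups in 1 fit the arms gave 10, 3, 1, 4 and 16 at 0, 6, 18 (anterior, posterior) and 48 hpa, orientation under RNAi 5, controls at 6 hpa 8, and RNAi 2 and 8 at 6 and 48 hpa. All contigs called were 6.96%, 4.44%, 3.6%, 4.36% and 7.2% for those arms and 12.6% for orientation. They were 2.44% for controls at 6 hpa and 2.42% and 4.5% for RNAi. With posterior replicates 3 and 4 alone the calls were 3 (arms), 5 (orientation) and 20 (against 0 hpa), where 5.18%, 9.42% and 25.3% of contigs were called. The cause of these moves was not tested.

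With the replicate block the arms gave 0 at 6 hpa, 1 at anterior 18 hpa and 11 at 24 hpa, and RNAi at 48 hpa against 0 hpa gave 5. There 1.4%, 4.36%, 17.0% and 5.37% of all contigs were called. The other 14 counts stayed within 1.5 times. Outside RNAi at 48 against 0 hpa the numbers did not pair the samples (r from -0.18 to 0.31). RLE factors and no minimum sum left all 18 counts within 1.5 times. Of the named fold changes past the threshold 17 of 94 lost the call by DESeq2, 12 of 95 with all groups in 1 fit and 164 of 613 with a library left out. Contigs of low count, such as POLN near 1 RPM, are those whose levels depth limits most.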
